A study of Mus musculus with 11 samples.

Results

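The genes described here encode subunits of the mitochondrial respiratory chain and of ATP synthase, with a few of their assembly factors, read in mononuclear phagocytes from 3 regions of the mouse epididymis. The rule that picks them reads gene symbols and no measured value: names beginning with Ndufa, Ndufb, Ndufc, Ndufs, Ndufv, Uqcr, Cox4i, Cox5, Cox6, Cox7, Cox8 or Atp5, and Sdha, Sdhb, Sdhc and Sdhd. This gave 90 of the 37583 genes in the expression table, after 1 pseudogene name was left out. Of the 90 genes, 36 encode complex I subunits, 5 complex I assembly factors, 4 complex II, 8 complex III, 20 complex IV and 17 ATP synthase or a factor named with it. Ndufa4 and Ndufa4l2 were placed with complex IV, to which the NDUFA4 protein belongs, and Atp5sl, whose protein assists the building of complex I, with the complex I assembly factors.

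The cells were EGFP+ cells, sorted in a double sort from mice aged 12 weeks that carried the CX3CR1 EGFP +/- genotype, in which cells using the promoter of Cx3cr1, the fractalkine receptor gene, fluoresce. All groups share this genotype, no group was treated, and the sort selects every cell type that uses this promoter, so a library can hold macrophages, dendritic cells and monocytes in any mixture. Of the 11 libraries, each a pool of 4 epididymides, 4 came from the initial segments (IS) at the start of the duct, 3 from the caput/corpus that follows and 4 from the cauda, where sperm are stored. Which animals went into a library is not stated in the labels, so p-values measure the spread between these libraries, which may in part be technical. In these bulk samples, a different mixture of cell types and a different RNA content per cell cannot be told apart.

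The respiratory chain passes electrons from NADH (complex I) and succinate (complex II) through ubiquinone to complex III, cytochrome c and complex IV, which reduces oxygen. Complexes I, III and IV pump protons across the inner mitochondrial membrane, and ATP synthase uses the gradient to make ATP. Macrophages and dendritic cells are known to shift between oxidative phosphorylation and glycolysis with their state of activation. Most subunits are encoded in the nucleus and a core set in the mitochondrial genome; the mitochondrially encoded genes are not analysed here.

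Libraries held 16873180 to 31737132 reads on genes. For 3 libraries (replicate 2 of IS and replicate 1 of both other regions) the deposited count file and the deposited RPKM column of that name hold different reads. The reads behind the named RPKM columns were used; calls made with the counts as filed are given beside the main counts. By title, 5 libraries belong to a series named Maj3 and 6 to Maj4; every region occurs in both series, which the model takes into account. Cauda replicate 1 stood apart, with reads on 13434 genes against 17053 to 18837 in the other libraries. Cx3cr1 itself was read in every region, at 790 ± 114 CPM (reads scaled to library size; SD, n = 4) in IS, 418 ± 119 (n = 3) in the caput/corpus and 311 ± 50.1 (n = 4) in the cauda.

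Most general forms were read at higher levels than forms known to be restricted to muscle, testis or hypoxic tissue, with some overlap. Levels of different genes are compared here as RPKM (reads scaled by gene length and library size), as the mean of the 3 region means. The 82 general forms ran from 0.191 to 434.6 RPKM, with a median of 41.3, and the 8 restricted forms from 0 to 12.5. The highest was Cox4i1, the widely expressed form of cytochrome c oxidase subunit IV, at 434.6 RPKM. Within the other complexes the highest were Atp5b, the catalytic beta subunit of ATP synthase, at 154 RPKM, Ndufa2, an accessory subunit of complex I, at 134 RPKM, Uqcrc1, a core protein of complex III, at 129 RPKM, and Sdhd, a membrane anchor of complex II, at 111 RPKM. The median was 71.2 RPKM in complex II, 40.4 in complex III, 40.2 in complex IV, 37.3 in ATP synthase, 36.6 in complex I and 12.3 for the complex I assembly factors. Only the complex IV set holds restricted forms, 8 of its 20 genes, at 0 to 12.5 RPKM. Its median therefore understates the general forms of complex IV and does not rank it against the other complexes.

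Complex IV was the complex in which paired isoforms could be set side by side. Its 8 restricted forms had a median of 0.336 RPKM, and the highest of them, Cox6b2, known from testis, had 12.5 RPKM. Cox4i2 had 0.418 RPKM beside 434.6 for Cox4i1, and Cox6a2, the heart and muscle form, had 2.21 beside 139.5 for Cox6a1. Cox7a1, also a heart and muscle form, had 1.23 RPKM beside 77.3 for Cox7a2. Ndufa4l2, known as a hypoxia-induced gene, had 0.255 RPKM beside 150 for Ndufa4. Cox8b and Cox8c had 1 read each over all libraries, and Cox7b2 had 0 of 264985804 reads, which allows up to 0.0114 CPM. Of the 3 genes for the c subunit of ATP synthase, which encode the same mature protein, Atp5g3 had 69.9 RPKM, Atp5g1 0.636 and Atp5g2 0.591. Of their 50-base transcript windows, 10.6% in Atp5g1 and 11.1% in Atp5g2 also occur in other genes and none in Atp5g3, so the first 2 levels are uncertain. How far sharing lowers them was not tested. The 26 general forms with some but under 20% shared windows, Atp5g1 and Atp5g2 among them, had a median of 38.5 RPKM.

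**Figure D1:**
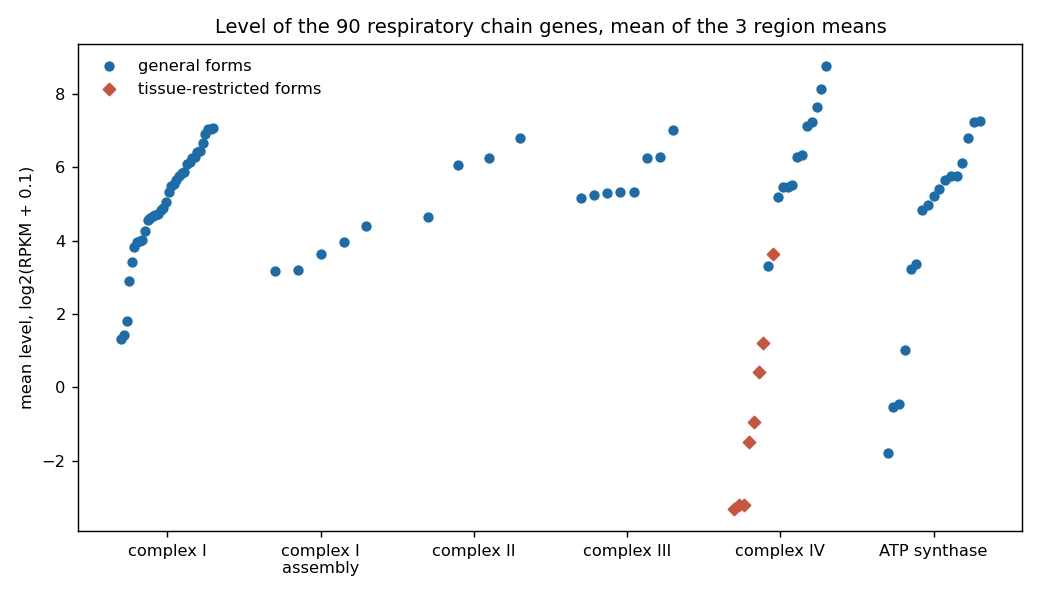
Level of each of the 90 genes by complex, as log2(RPKM + 0.1) of the mean of the 3 region means. Blue circles are general forms and red diamonds the 8 tissue-restricted forms of complex IV, which range from 0 RPKM to the 12.5 RPKM of Cox6b2; the lowest general forms are Atp5l2, Atp5g2 and Atp5g1, under 1 RPKM, and Cox4i1 at 434.6 RPKM is the highest point.

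Low levels among the general forms went together with sequence shared with other genes. The 10 general forms with at least 20% of their 50-base transcript windows also found in other genes had a median of 12.3 RPKM, against 38.5 for the 26 with some but fewer shared windows and 68.7 for the 45 with none. Atp5l shared 68.5% of its windows and had 1.93 RPKM, and Cox7c shared 27.9% and had 9.86 RPKM. The share of reads not uniquely aligned was 27.6% to 35.8% in the Maj3 count files and 12.5% to 14.7% in those of Maj4. Levels of these 10 genes (Atp5l, Atp5h, Uqcrb, Ndufb4, Ndufs3, Ndufs5, Cox7c, Ndufa12, Cox5b and Atp5f1) are therefore uncertain. Gene lengths in the table run from 360 to 22595 bases among the members, the longest for Atp5c1, and RPKM divides by them.

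The members' promoters were searched for short motifs known from nuclear genes of mitochondrial proteins, as a description with no test. RefSeq promoter windows (GRCm38.p6, 250 bases before to 50 after the start) were found by symbol for 71 members, and 19 had no entry. On either strand, the letters of the NRF1 motif (10 bases) were in 18 of the 71 windows (25.4%) and in 5.19% of the windows of all 27025 genes. CCGGAAG, an ETS family motif, was in 17 of 71 (23.9%) against 9.93%, and a YY1 motif (11 bases) in 4 of 71 (5.63%) against 0.755%. Of the 21 members called higher in the cauda than in IS (below), 17 had a window, of which 5 held the NRF1 letters, 5 the ETS letters and 1 the YY1 letters. These are matches of letters and not measured sites. The windows of the 3 called members with the largest fold changes are printed 5′ to 3′ along the gene's strand, with motif letters in capitals: Ndufa6 (chr15:82354242-82354541, minus strand, 1 NRF1 match), Uqcrfs1 (chr13:30545267-30545566, minus strand, no match) and Uqcrh (chr4:116075021-116075320, minus strand, 1 ETS match).
Ndufa6: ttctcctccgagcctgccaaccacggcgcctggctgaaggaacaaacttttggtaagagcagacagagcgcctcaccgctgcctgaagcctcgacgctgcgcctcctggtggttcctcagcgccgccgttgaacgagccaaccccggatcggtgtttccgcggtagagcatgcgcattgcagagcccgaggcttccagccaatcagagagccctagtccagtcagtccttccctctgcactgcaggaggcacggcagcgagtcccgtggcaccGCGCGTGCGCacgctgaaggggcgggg
Uqcrfs1: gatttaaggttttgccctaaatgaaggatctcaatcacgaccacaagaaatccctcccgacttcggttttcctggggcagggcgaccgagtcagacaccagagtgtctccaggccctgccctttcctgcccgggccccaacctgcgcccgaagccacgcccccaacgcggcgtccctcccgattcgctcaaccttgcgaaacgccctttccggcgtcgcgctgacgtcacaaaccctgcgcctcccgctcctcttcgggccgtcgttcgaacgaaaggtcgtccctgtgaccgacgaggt
Uqcrh: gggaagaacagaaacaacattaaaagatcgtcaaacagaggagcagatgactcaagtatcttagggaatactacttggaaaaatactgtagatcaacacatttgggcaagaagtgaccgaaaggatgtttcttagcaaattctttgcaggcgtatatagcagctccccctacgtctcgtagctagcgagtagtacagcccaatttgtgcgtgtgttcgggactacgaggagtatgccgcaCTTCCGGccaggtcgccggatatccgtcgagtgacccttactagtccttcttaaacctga

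IS and cauda, the far ends of the duct, differed in 21 of the 86 members tested, and all 21 were higher in the cauda. The 4 members too low to test were Atp5l2, Cox7b2, Cox8b and Cox8c. The 21 are 24.4% of those tested, where 8.9% of all 15116 genes were called higher in the cauda and 7.42% higher in IS (edgeR quasi-likelihood test, adjusted p under 0.05). The log2 fold change pointed toward the cauda in 73 of 86 members, against 46.4% of all genes. The members' median was -0.31 (IS over cauda, log2), or 1.24-fold higher in the cauda, beside a median of 0.05 over all genes. In 19 members (22.1%) every cauda library was above every IS library, as in 7.95% of all genes, and the reverse held for 1 member, Cox6a2, and 10.6% of all genes.

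By complex, the calls toward the cauda were 4 of 8 in complex III, 5 of 16 tested in ATP synthase, 5 of 17 tested in complex IV and 7 of 36 in complex I. None of the 4 complex II genes and none of the 5 complex I assembly factors was called. The median log2 fold change of IS over cauda was -0.36 in complex III and in ATP synthase, -0.30 in complex I, -0.26 in complex IV, -0.12 in complex II and -0.10 for the assembly factors. The 17 of complex IV include 5 restricted forms, with no call by edgeR and a median of 1.12. Of these, 3 pointed toward IS and 2 toward the cauda, and all but Cox6b2 were low in reads. Cox6b2, with 1814 reads, had -0.81 ± 0.32 (adjusted p = 0.124, edgeR), with every cauda library above every IS library. Limma called it higher in the cauda with voom and on both RPKM scales. Together the 5 draw the complex IV median toward 0 and lower its share of calls, so complex IV is not placed below complex I. The complexes were not tested against one another.

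**Figure D2:**
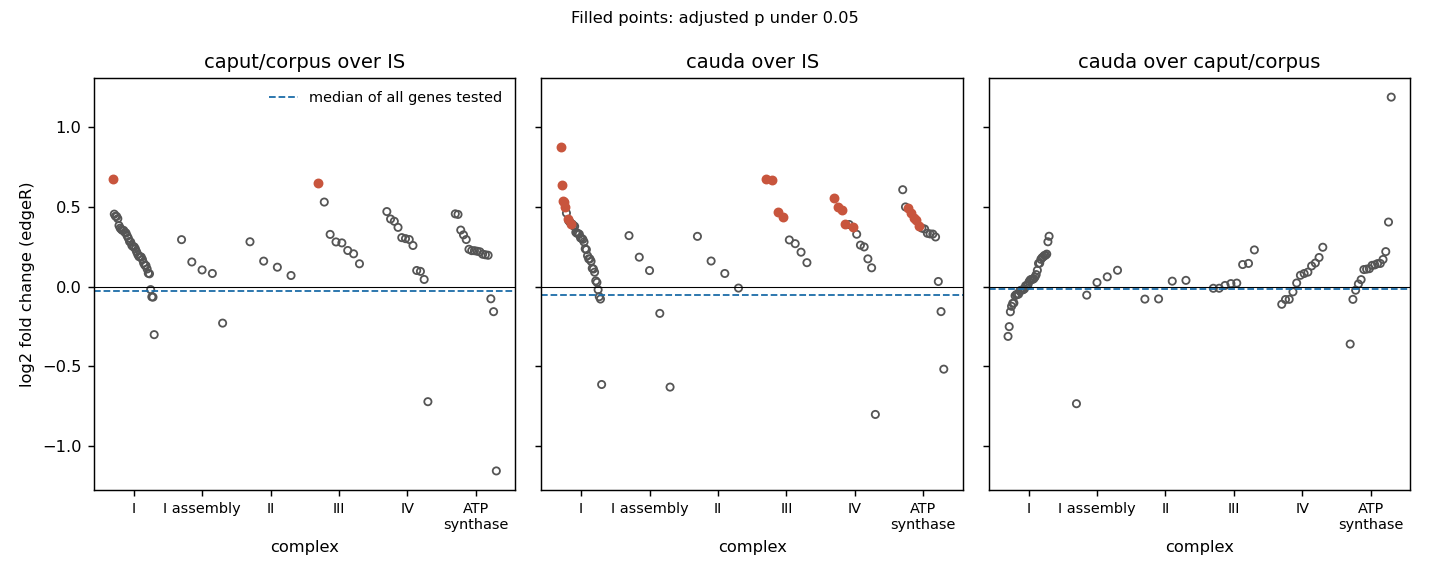
Log2 fold changes of the 81 general forms tested, by complex, for the 3 comparisons between regions; each point is a gene, filled where called. For cauda over IS the filled points lie in complexes I, III, IV and ATP synthase and all are above 0, while for cauda over caput/corpus no point is filled.

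In complex I, Ndufa6, an accessory subunit that docks the mitochondrial acyl carrier protein, had the largest fold change among the calls. Its level in IS replicates 1 to 4 was 45.2, 42.3, 55.6 and 53.2 CPM, in caput/corpus replicates 1 to 3 it was 67.3, 96.0 and 79.7 CPM, and in cauda replicates 1 to 4 it was 85.0, 85.8, 86.8 and 100.3 CPM. All IS libraries lay below all libraries of the other regions, and the caput/corpus and cauda libraries overlapped. Ndufa6 was 1.83-fold higher in the cauda than in IS (log2 fold change of IS over cauda -0.87 ± 0.11, SE; adjusted p = 0.000499, edgeR). Ndufb9, another accessory subunit, had 81.7, 80.4, 65.7 and 64.5 CPM in IS and 132.9, 109.6, 81.3 and 93.0 CPM in the cauda. Its groups overlapped slightly when series were pooled and not within a series, and the difference was 1.42-fold (log2 -0.50 ± 0.10; adjusted p = 0.00624, edgeR). The other complex I genes called were Ndufa2 (1.45-fold), Ndufs6 (1.56-fold), Ndufb8 (1.34-fold), Ndufb7 (1.32-fold) and Ndufb6 (1.44-fold). The call of Ndufb7 was lost in 9 and that of Ndufb6 in 10 of the 11 fits that left out 1 library. Ndufa2 and Ndufs6 were called in 7 of these 11 fits and Ndufb8 in 6. The core subunits that carry the redox centres were not among the called genes: Ndufs1 was at 16.3 ± 2.72 RPKM in IS and 16.4 ± 4.98 in the cauda, and Ndufv1 at 38.4 ± 5.88 and 41.1 ± 9.13 (n = 4 each).

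In complex III, the called genes were Uqcrh, Uqcrc1, Uqcrfs1 and Uqcrq. Uqcrh, the hinge protein that sits beside cytochrome c1, had 42.2, 39.0, 34.6 and 34.3 CPM in IS, 59.7, 66.8 and 46.4 in the caput/corpus, and 60.0, 64.2, 55.8 and 58.4 in the cauda. Every IS library was below every other library, and Uqcrh was 1.59-fold higher in the cauda (log2 -0.67 ± 0.13; adjusted p = 0.0058, edgeR). Uqcrfs1, the Rieske iron-sulfur protein, had 87.5, 94.0, 63.8 and 69.1 CPM in IS and 146.6, 124.4, 108.3 and 120.9 CPM in the cauda. Its IS and cauda libraries did not overlap, at 1.60-fold (log2 -0.68 ± 0.15; adjusted p = 0.0113, edgeR). Uqcrc1 had 208.4, 247.2, 154.0 and 144.0 CPM in IS and 296.3, 336.5, 189.2 and 220.1 CPM in the cauda. The groups overlapped across series and were separate within each, with a 1.38-fold difference (log2 -0.47 ± 0.10; adjusted p = 0.00914, edgeR). Uqcrq was 1.35-fold higher in the cauda, a call lost in 9 of the 11 fits that left out 1 library.

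In complex IV, Cox4i1 had 270.0, 251.0, 231.4 and 205.5 CPM in IS, 320.0, 290.6 and 249.9 in the caput/corpus, and 429.1, 354.5, 299.1 and 327.2 in the cauda. All cauda libraries were above all IS libraries, by 1.47-fold in the fit (log2 -0.55 ± 0.10; adjusted p = 0.00336, edgeR). The others called were Cox7b (log2 fold change of IS over cauda -0.48), Cox7a2 (1.30-fold), Cox6b1 (1.31-fold) and Cox7a2l (1.42-fold), whose protein joins complexes III and IV in supercomplexes. Of the 11 fits that left out 1 library, Cox7b was called in 7, Cox7a2 and Cox6b1 in 5 each and Cox7a2l in 4. Cox6a1 and Ndufa4, among the most abundant, were not called: Cox6a1 had 129.7 ± 12.0 CPM in IS and 141 ± 17.3 in the cauda, and Ndufa4 had 70.3 ± 9.67 and 79.4 ± 12.5 (SD, n = 4 each). Cox8a had 93.4 ± 6.65 and 111.9 ± 7.12 CPM, with an adjusted p of 0.111 by edgeR, although its groups did not overlap.

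In ATP synthase, the 3 genes of the central stalk of the F1 part were all called, a grouping noted after their values were seen. Atp5d, the delta subunit, had 80.2, 93.7, 90.6 and 77.9 CPM in IS, 103.6, 113.1 and 103.5 in the caput/corpus, and 130.7, 118.4, 112.0 and 121.6 in the cauda. IS lay below both other regions in every library, and the cauda was 1.41-fold above IS (log2 -0.50 ± 0.10; adjusted p = 0.00677, edgeR). Atp5c1, the gamma subunit, was 1.38-fold and Atp5e, the epsilon subunit, 1.35-fold higher in the cauda. Atp5g3, for the proton-carrying c ring, was 1.30-fold and Atp5b 1.34-fold higher. Of the 11 fits that left out 1 library, Atp5e was called in 8, and Atp5g3 and Atp5b in 5 each. Atp5b had 588.2, 705.2, 400.8 and 413.7 CPM in IS and 763.8, 846.8, 573.4 and 601.0 in the cauda, so IS replicates 1 and 2 overlapped the cauda replicates of the other series. Atp5a1, the alpha subunit that alternates with beta, was at 133 ± 21.7 RPKM in IS and 170 ± 30.6 in the cauda and was not called (adjusted p = 0.0831, edgeR).

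**Figure D3:**
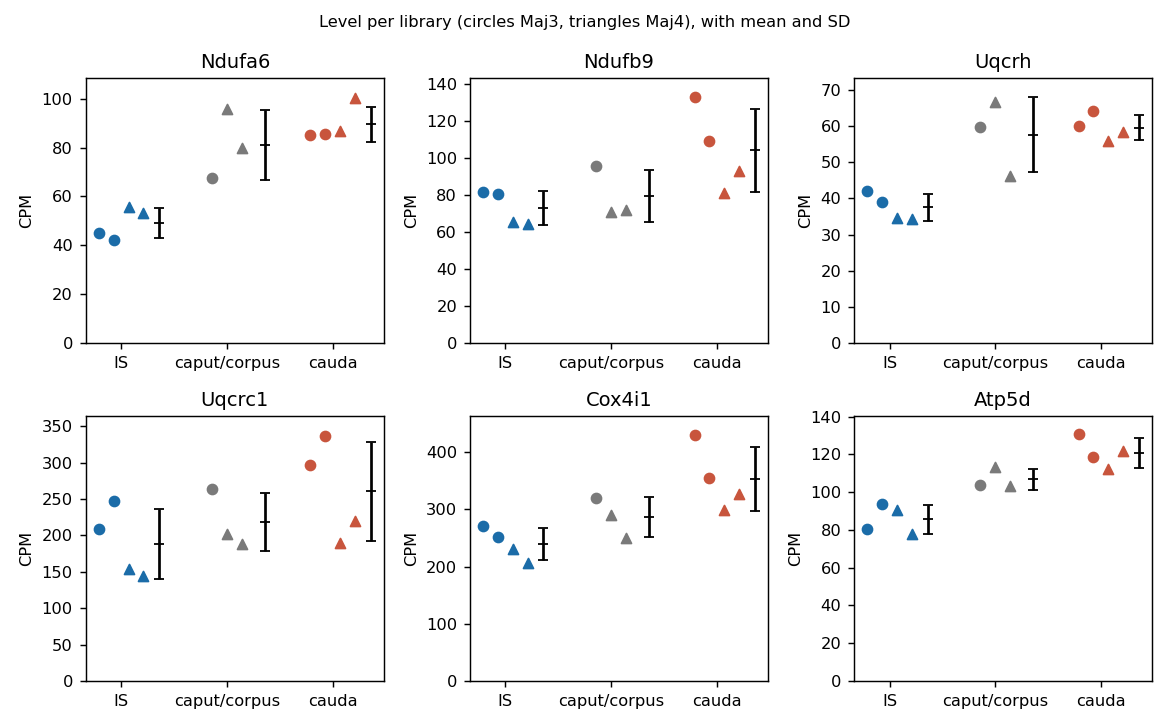
Level in CPM per library of the 6 called members of smallest p, by region; circles are Maj3 and triangles Maj4 libraries, and bars give mean and SD. Cauda points lie above IS points for Ndufa6, Uqcrh, Cox4i1 and Atp5d, whereas for Ndufb9 and Uqcrc1 IS and cauda separate only within a series.

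The complex II genes had the smallest differences of the 4 electron transport complexes between IS and cauda, by their median. Sdha, the flavoprotein, had 276.6 ± 62.5 CPM in IS, 294.5 ± 42.4 in the caput/corpus and 287.8 ± 52.2 in the cauda, and Sdhb, the iron-sulfur protein, 177.3 ± 44.3, 173.0 ± 23.3 and 174.5 ± 33.8 CPM. For Sdhb the log2 fold change of IS over cauda was 0.01 ± 0.11, and for Sdha -0.08 ± 0.14. The membrane anchors Sdhc and Sdhd had -0.16 ± 0.13 and -0.32 ± 0.12, with adjusted p values of 0.481 and 0.109 (edgeR). A miss of the threshold does not show equal levels.

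A few members ran the other way without being called. Cox7c was at 16.8 ± 4.50 CPM in IS and 9.36 ± 5.92 in the cauda (adjusted p = 0.366, edgeR), Ndufab1, the mitochondrial acyl carrier protein, at 21.9 ± 2.95 and 14.3 ± 4.403 (adjusted p = 0.126) and the assembly factor Ndufaf1 at 18.7 ± 5.52 and 11.6 ± 6.25 (adjusted p = 0.379). Cox7c in cauda replicate 1, the library with fewest genes read, was 1.72 CPM against 8.25 to 15.7 in the other cauda libraries. Ndufa4l2 had the largest fitted log2 fold change of any member, 4.19 ± 1.41 toward IS, at levels of 0.538 ± 0.574 and 0.0345 ± 0.0484 CPM and an adjusted p of 0.0706 (edgeR). It rests on 74 reads in all, with 2 cauda libraries at 0, and the log2 fold change ran from 0.52 to 4.41 over 17 alternatives; limma called it higher in IS at 2.45 with voom and at 1.77 on log2(RPKM + 0.1).

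The number of calls moved with the libraries used, as did its distance from the share of all genes, and the direction of the median did not. With the counts as filed under each sample, 0 members and 4 of all genes were called between IS and cauda, with 3134 genes at an unadjusted p under 0.05 (edgeR), and the members' median was -0.29; on the 8 libraries for which both sources match, 9 of 85 members were called (8 of them among the 21), 10.6% against 7.69% of all genes called higher in the cauda, and the median was -0.27. Within Maj3 alone no member was called (0.118% of all genes higher in the cauda, with 2082 genes at an unadjusted p under 0.05 in either direction), and within Maj4 alone 2 of 85, or 2.35%, which is below the 3.56% of all genes; the medians were -0.27 and -0.28. Without cauda replicate 1 there were 27 calls (19 of the 21), 31.8% against 10.9%. Calls fell to 8 without IS replicate 1 or without cauda replicate 4, to 11 without IS replicate 2 or 3 and to 10 without IS replicate 4, or 9.3% to 12.9% of members against 6.1% to 7.02% of all genes. Ndufa6, Ndufb9, Uqcrc1, Uqcrfs1, Uqcrh, Cox4i1, Atp5d and Atp5c1 were called in all 11 fits that left out 1 library.

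Between IS and caput/corpus, 2 of the 86 members were called, Ndufa6 and Uqcrh, both higher in the caput/corpus. That is 2.33%, close to the 2.95% of all genes called in that direction; 0.794% of all genes and no member were called higher in IS, and 3.74% of all genes in either direction. Ndufa6 was 1.60-fold higher in the caput/corpus (log2 fold change of IS over caput/corpus -0.68 ± 0.11; adjusted p = 0.0103, edgeR) and Uqcrh 1.57-fold (-0.65 ± 0.14; adjusted p = 0.0305). The call of Uqcrh was lost in 9 of the 11 fits that left out 1 library, and that of Ndufa6 in none. In direction, 74 of 86 members pointed toward the caput/corpus, against 47.6% of all genes, with a median of -0.23 beside 0.03 for all genes. At an unadjusted p under 0.05, 27 members (31.4%) were higher in the caput/corpus and none in IS, against 9.27% and 5.71% of all genes. In 12 members (14%) all 3 caput/corpus libraries were above all IS libraries, against 7.51% of all genes, among them Atp5c1, Atp5d, Atp5e, Cox7a2 and Cox8a. The reverse held for 3 members, Atp5g2, Cox4i2 and Cox7c (3.49%), and for 6.82% of all genes. In IS and caput/corpus, Atp5g2 was at 0.463 and 0.206 CPM and Cox4i2 at 0.551 and 0.182 CPM. They rest on 105 and 88 reads over all libraries, and Cox7c shares 27.9% of its windows with other genes.

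This comparison and the previous one share the IS libraries, so their common direction is not independent. With the counts as filed no member and no gene was called between IS and caput/corpus (1173 genes at an unadjusted p under 0.05, edgeR), and the log2 fold changes of Ndufa6 and Uqcrh were both -0.36. DESeq2 called 8 members (9.3%, all genes 5.26%), limma voom 10 (11.6%, all genes 6.91%) and the fit without cauda replicate 1 called 7 (8.24%, all genes 5.63%). The main fit gave 2.33% of members and 2.95% of all genes, so both shares were higher in these fits. There the members' share was above that of all genes, and the cause was not tested.

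Between cauda and caput/corpus, no member was called in either direction by edgeR, DESeq2 or limma voom. Of all genes, edgeR called 0.0397% higher in the cauda and 0.576% higher in the caput/corpus, 0.615% in all. In the same order, the shares were 0.794% and 3.42% with DESeq2, and 1.51% and 2.8% with limma voom. At an unadjusted p under 0.05 there were 2 members, Ndufb9 and Cox4i1, both higher in the cauda (2.33%), against 4.26% of all genes in that direction and 7.42% in the other. No member had all cauda libraries above all caput/corpus libraries, as 3.04% of all genes had, and 1 tested member, Cox6a2, had the reverse, as 6.52% had. The log2 fold change pointed toward the caput/corpus in 31 members (36%) and in 51.7% of all genes. The median log2 fold change of cauda over caput/corpus was 0.04 and turned to -0.0358 without caput/corpus replicate 3. The mean CPM followed the order IS, caput/corpus, cauda in 57 of the 86 members (66.3%) and in 24.2% of all genes.

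The 2 title series also differed, by about as much as the regions. Within IS, 78 of 86 members were higher in Maj3 than in Maj4 libraries (median log2 difference 0.32, all genes 0.04), within the caput/corpus 72 (0.32, all genes 0.04) and within the cauda 72 (0.29, all genes -0.11). Summed over the 90 members, the level was 6023 ± 975 CPM in IS, 6828 ± 929 in the caput/corpus and 7498 ± 1066 in the cauda, so the SDs overlap. Within Maj3 the sums were 6856, 7650 and 8392 CPM in that order, and within Maj4 5190, 6416 and 6605 CPM. Complex II followed the series and not this order: its sum was 818.9, 832.8 and 826.3 CPM in Maj3 and 524.7, 628.4 and 616.3 CPM in Maj4.

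**Figure D4:**
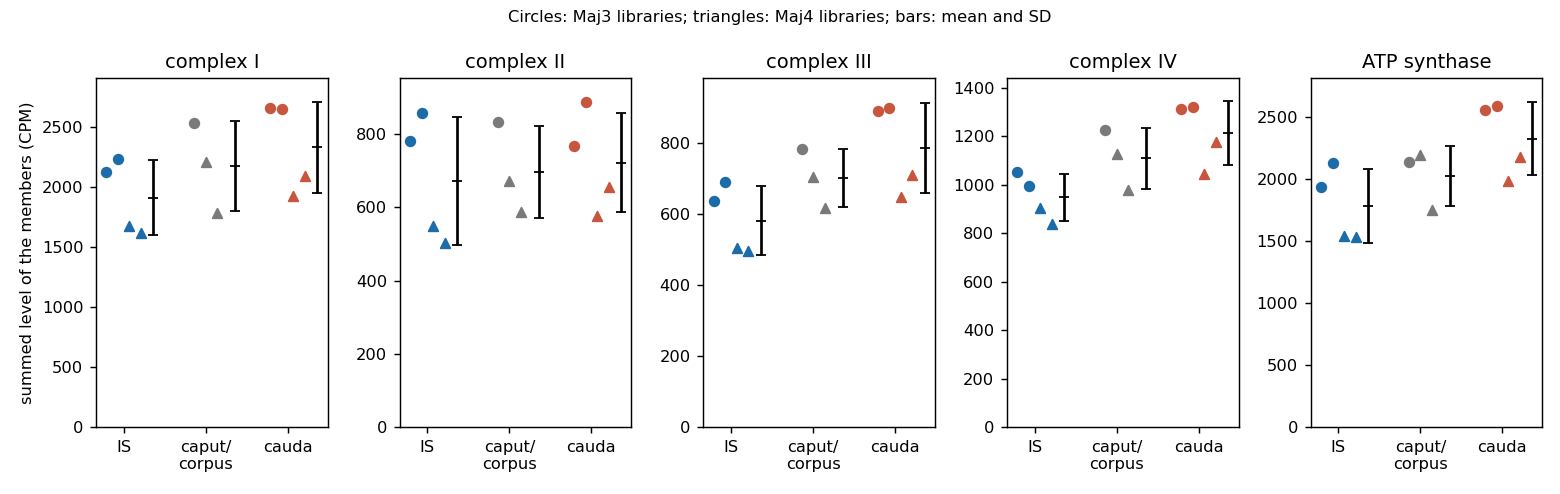
Summed CPM of the members of each complex per library, by region, with mean and SD; circles are Maj3 and triangles Maj4 libraries. Maj3 libraries lie above Maj4 libraries of the same region in every panel apart from caput/corpus replicate 2 for ATP synthase, and the IS points are lower than cauda points of the same series in the panels of complexes I, III, IV and ATP synthase; the complex I assembly factors are not drawn.

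**Figure D5:**
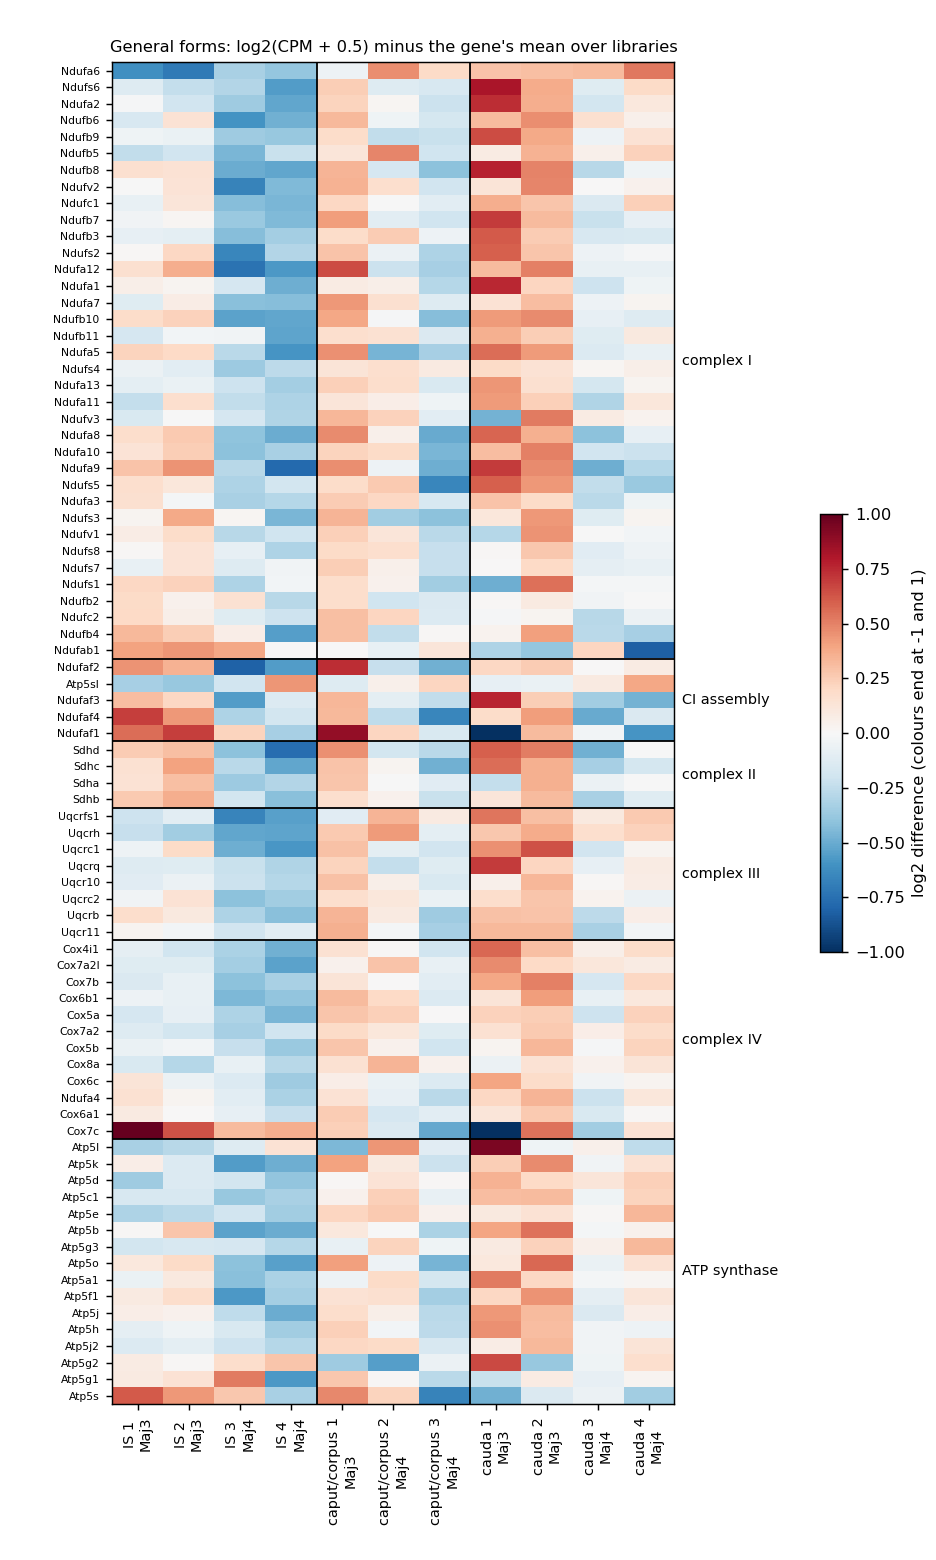
Row-centred log2(CPM + 0.5) of the 81 general forms tested, grouped by complex, with libraries in columns and their title series under them; red is above and blue below the gene's mean. IS replicates 3 and 4 have the lowest sums over the members (5270 and 5111 CPM) and are mostly blue, cauda replicates 1 and 2 the highest (8305 and 8479 CPM) and are mostly red, and Cox7c, Ndufab1 and Ndufaf1 run against their neighbours.

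Other lists of mitochondrial genes differ in size and were not tested as sets. Their counts stand beside all genes, of which 8.9% were called higher in the cauda and 7.42% higher in IS. Of 17 genes of the tricarboxylic acid cycle, 3 were higher in the cauda than in IS: Fh1, fumarase, at 91.8 ± 18.1 and 177.8 ± 33.2 CPM, Mdh2, malate dehydrogenase, at 118.4 ± 36.4 and 230.0 ± 91.8, and Cs, citrate synthase, at 123.6 ± 15.8 and 164.7 ± 22.7 (SD, n = 4 each). Of 76 mitochondrial ribosomal protein genes, 13 were higher in the cauda and 2 in IS, with a median log2 fold change of IS over cauda of -0.22. Of 32 assembly factors of complexes II to V, 1 was higher in the cauda, Pet100, which assists the building of complex IV, and of 7 other complex I assembly factors none. The 6 tested subunits and carriers outside the naming rule had no call and a median of -0.30. Of 16 regulators of mitochondrial biogenesis 1 was called, Ssbp1, the mitochondrial single-stranded DNA binding protein, higher in IS at 71.6 ± 18.4 against 41.4 ± 9.45 CPM. Among 8 uncoupling and antioxidant genes, the peroxiredoxin Prdx5 was higher in IS and the thioredoxin Txn2 higher in the cauda.

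Genes outside mitochondria moved between the same regions, and their part in the differences above was not tested. Of 77 cytosolic ribosomal protein genes, 42 were higher in the cauda and 1 in IS, with a median log2 fold change of IS over cauda of -0.62, larger than that of the respiratory chain genes. Conventional dendritic cell markers were higher in the cauda for 11 of 14 genes and summed to 701 to 1176 CPM in IS, 2269 to 2678 in the caput/corpus and 2265 to 3932 in the cauda. Monocyte markers were higher in the cauda for 10 of 12 genes, with sums of 779 to 1685, 2540 to 3660 and 3380 to 5658 CPM. Macrophage markers were higher in IS for 10 of 16 genes and in the cauda for 1, with sums of 17937 to 25859, 13162 to 22612 and 11432 to 15253 CPM, and microglia-type genes for 12 of 12. Immediate early genes, which can rise during cell isolation, were higher in the cauda for 16 of 18 genes.

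Markers of other cell types moved as well, where 8.9% of all genes were called higher in the cauda and 7.42% higher in IS. Mast cell markers were higher in the cauda for 9 of 9 genes, at 42.9 to 123 CPM in IS, 799 to 1154 in the caput/corpus and 1166 to 4321 in the cauda. Epididymal epithelium markers were higher in IS for 15 of 19 genes tested, at 1576 to 3665, 477 to 797 and 17.3 to 43.8 CPM. Muscle and stroma markers were higher in IS for 2 of 13 genes, at 174 to 627, 67.1 to 423 and 30.1 to 98.2 CPM. Lymphocyte markers were higher in IS for 2 of 10 genes, and 1 neutrophil marker was tested and was higher in IS, while S100a9 and Ly6g were at 0. Of the sperm and germ cell markers, 3 of 11 were tested and none was called, with sums of at most 12.2 CPM in any library.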

How the data were processed

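RNA was measured in 11 libraries of sorted epididymal cells; per the labels' protocols, a PicoRNA kit, the SMARTer v4 kit and HiSeq2500 sequencing were used. STAR, HTSeq, edgeR and the build mm9 are named, without versions, in the submitters' processing notes. The deposited files hold read counts per gene (HTSeq, not stranded, per the file names) and the authors' RPKM table, scaled by gene length and effective library size. Each RPKM value times its gene length was a whole multiple of 1 step within 0.001 for all 37583 genes in each column, which gave back the reads. Count file and column held the same reads for 8 samples. The file of IS replicate 2 equalled no column, that of caput/corpus replicate 1 the column of IS replicate 2, and that of cauda replicate 1 the column of caput/corpus replicate 1; the reads of the column named cauda replicate 1 are in no count file. The columns were used, a choice made with marker levels known.

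Tests were edgeR 4.0.16 quasi-likelihood F tests (R 4.3.3, limma 3.58.1) on all 11 libraries, with filterByExpr by region (15116 genes), TMM and the title series as covariate; p-values were adjusted by Benjamini-Hochberg over all genes and called under 0.05. Standard errors derive from the F statistic. CPM uses TMM library sizes; the upper limit of a count of 0 takes 3 reads and, like all counting limits, covers counting error only, since reads carry no molecular identifiers. Alternatives (25) included DESeq2 1.42.0, limma voom, limma on log2(RPKM + 1) and log2(RPKM + 0.1), other filters and each library left out. Members and the 20 gene lists were chosen with earlier results of these data known. Full statistics went to the 6 called members of smallest p per direction, the highest subunit per complex, the Sdh genes and the isoform sets; other members were named with levels or folds, some after their values were seen. Promoter windows are from RefSeq.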

Additional observations from a re-analysis of the deposited data

Results flagged for a closer look

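In 68 groups of 4 libraries examined, a single library lay far from the other 3 in 2 cases, where chance gives about 1 in 20. Ndufa6 in cauda replicate 4 was 100.3 CPM, against 85.0 to 86.8 in the other cauda libraries. Cox6a2 in IS replicate 1 was 2.63 CPM, against 1.46 to 1.62 in the other IS libraries. The reads in the count file under IS replicate 2, which equal no RPKM column and enter no comparison above, gave a summed level of 6418 CPM over the respiratory chain genes, within the 5057 to 8389 CPM of the other count files.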

How the results depend on the processing

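Among 25 alternatives the members' median kept its direction in all 25 for IS against caput/corpus (-0.31 to -0.15) and for IS against cauda (-0.34 to -0.27). For cauda against caput/corpus, left-out libraries gave -0.0358 to 0.0857, and no member was called under any alternative. Of all genes, up to 3.42% were called there higher in the caput/corpus and up to 1.51% higher in the cauda. The 21 calls of IS against cauda became 5 without the title series (5.81% of members, near the 4.73% of all genes called higher in the cauda) and 12 without a filter on low counts (13.5%, all genes 4.87%). Limma gave 33 on log2(RPKM + 1) and 34, with 1 higher in IS, on log2(RPKM + 0.1) (toward the cauda 38.4% in each, all genes 10.1%). DESeq2 gave 28 with 1 higher in IS (toward the cauda 31.4%, all genes 11.1%). Limma voom gave 47 with 2 higher in IS (toward the cauda 52.3%, all genes 15.3%). There were 0 in Maj3, 2 in Maj4, 9 on the 8 matching libraries, 0 with counts as filed, and 8 to 27 with 1 library left out. The 2 calls of IS against caput/corpus became 0 without the title series, in Maj3, in Maj4 and with counts as filed. Of all genes, 1.22%, 0%, 1.78% and 0% were called higher in the caput/corpus in these fits. Without a filter there was 1 call (1.12%, all genes 1.8%). Limma on either RPKM scale gave 5, all higher in the caput/corpus (5.81%, all genes 4.06% on log2(RPKM + 1) and 3.9% on log2(RPKM + 0.1)). DESeq2 gave 8, limma voom 10, and the fits with 1 library left out 1 to 7. The cause of these changes was not tested, except that single series and matching libraries hold fewer samples. After region and series, libraries of the same series correlated at -0.24 to 0.28 with the same number and at -0.55 to 0.08 with different numbers. Taking out the series pushes such values down, so they cannot settle whether the numbers are pairs. The main fit did not pair them. With a replicate block 15 of the 21 calls remained (17.4% of members, all genes 8.26%), and 1 of the 2 (1.16%, all genes 2.1%). For cauda against caput/corpus 0 members were called, with 0.265% of all genes higher in the caput/corpus and 0 in the cauda.

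Signs changed only in uncalled named genes (log2 fold change, first region over second). For IS against caput/corpus, Sdhb was 0.0355 without the title series, 0.00108 with voom and 0.12 in Maj3, Sdhc 0.00776 and Ndufa4 0.00721 without the title series, Atp5b 0.0167 in Maj3, Atp5g1 -0.0303 with voom and -0.20 in Maj3, Cox6b2 0.0439 with counts as filed, and Cox6a2 -0.16 in Maj4, -0.0917 on the matching libraries, -0.0514 as filed and -0.0198 with only both regions. For IS against cauda, Sdha was 0.16 in Maj3, Sdhb -0.0397 with voom, -0.0664 in Maj4, -0.0429 on the matching libraries and -0.10 as filed, Atp5g1 -0.0143 with voom and -0.0646 as filed, Cox7a1 0.25 with the block, 0.0287 and 0.43 with limma on RPKM + 1 and + 0.1 and 0.13 in Maj4, and Atp5g2 0.18 with the block, 0.65 with voom, 0.0269 and 0.15 with limma, 0.00130 with RLE size factors, 0.34 in Maj4, 0.67 on the matching libraries and 0.56 as filed. With 1 library left out, IS against caput/corpus ran from -0.20 to 0.19 for Cox6a2, -0.24 to 0.28 for Atp5g1, -0.17 to 0.0293 for Sdhb and -0.22 to 0.0367 for Sdhc, and IS against cauda from -0.29 to 0.62 for Atp5g2, -0.0405 to 0.0805 for Sdhb, -0.51 to 1.08 for Cox7a1 and -0.14 to 0.35 for Atp5g1. Depth limits the restricted isoforms, most of which had under 1 CPM.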
